A study of Canis lupus familiaris with 30 samples.

Results

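Somatostatin (*SST*) and its receptors *SSTR1*, *SSTR2*, *SSTR3*, *SSTR4* and *SSTR5* were followed across 30 primary canine thyroid carcinomas, 1 RNA sequencing library per tumor. The genes were taken by symbol from the table of raw counts, and 4 of the 6 symbols were found among its 30424 genes: *SST* (ENSCAFG00000013891), *SSTR1* (ENSCAFG00000013755), *SSTR2* (ENSCAFG00000004498) and *SSTR3* (ENSCAFG00000001509). *SSTR4*, *SSTR5* and *CORT*, the gene of the related peptide cortistatin, had no entry under these symbols and were not analysed here. All libraries were made from bulk tumor tissue of the thyroid gland, from total RNA depleted of ribosomal RNA, and the labels give no treatment and no age of the dogs. The labels name no histologic class for any tumor and none was used here, so values are given by tumor. The libraries held 12288945 to 45148677 reads on genes (median 25569678).

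Somatostatin is a small peptide hormone, cut from a longer precursor and released by neuroendocrine cells of the gut, the pancreatic islets, the brain and some thyroid C cells, where it restrains the secretion of neighbouring cells. C cells are the neuroendocrine cells of the thyroid gland, best known for making calcitonin from the gene *CALCA*. Follicular cells, which make thyroid hormone on thyroglobulin (*TG*), form the bulk of the gland. The somatostatin receptors are membrane proteins that couple to inhibitory G proteins, which lower cyclic AMP through adenylyl cyclases, open inwardly rectifying potassium channels and engage tyrosine phosphatases. *SSTR2* is the main target of the somatostatin analogs used to image and treat neuroendocrine tumors.

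To set the values of these genes beside the rest of the transcriptome, the tumors were clustered on 763 genes of high variance with somatostatin and its receptors left out. The tree split into a branch of 5 tumors (TC1020, TC1473, TC1601, TC1936 and TC2289) and a branch of 25. These branches were drawn here from the counts, not from a class given in the labels, and were compared without a test. Only somatostatin and its receptors were left out, so marker and pathway genes could help draw the branches they are set against. Of the 8 C cell markers that reached 10 counts in 5 or more tumors, 4 were higher in each of the 5 tumors than in any of the 25. Among them were *RET*, *SYP* and *SCG2*, and the share over all genes that reached these counts was 1.8%. *CALCA*, *CALCB*, *CHGB* and *GFRA4* overlapped between the branches. For *CALCA*, TC2289 had 95 counts and TC22, of the larger branch, had 10889, and *GFRA4* had 4 counts in TC1473. The calcium-sensing receptor gene *CASR*, which C cells and parathyroid cells share, was also higher in all 5. *TG*, *PAX8* and the other follicular cell markers overlapped between the branches. Their medians were lower in the branch of 5 (*TG* 11.01 against 19.16, *PAX8* 8.09 against 13.71), except for *SLC26A4* (7.27 against 7.03). *TG* was near absent in TC1088, a tumor of the larger branch, with 12 counts. For *PAX8*, *IYD* and *DUOX2* the overlap came from TC1088 alone. Its levels were 6.87, 0 and 2.00, below the highest of the 5 (10.68, 10.67 and 9.84).

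*SST*, the ligand, was read in few tumors and at very different levels. TC1473 had 38249 counts, TC1601 had 9919, TC1020 had 2489, TC1593 had 1161, TC2289 had 96 and TC2011 had 21. The remaining 24 tumors had at most 7 counts, 13 of them between 1 and 9 and 11 at 0. TC1473 alone held 73.6% of the 51972 *SST* counts of the series, and the 4 tumors with most held 99.7%. On the level scale used below, log2 of the size-factor normalized count plus 1, *SST* reached 15.09 in TC1473 and had a median of 1.24 over the 30 tumors. In bulk tissue, fewer cells of a type and less RNA per cell cannot be told apart.

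The branch of 5 held 4 of the 6 tumors with at least 10 *SST* counts, and the fifth tumor of the branch had none. In TC1936, a count of 0 allows an *SST* level of up to 0.119 CPM (counts per 1e+06 reads on genes), while the same tumor had 586358 counts of *CALCA* and 72941 of *PCSK2*, an enzyme that cuts peptide precursors in neuroendocrine cells. TC2289 was the reverse case for calcitonin, with 96 counts of *SST*, 95 of *CALCA* and 159262 of *SCG2*, a protein of secretory granules. The 3 tumors with the most *SST* also had much *CALCA*, with 247126 counts in TC1473, 132876 in TC1601 and 439003 in TC1020. Among these 3, the order of *CALCA* was neither that of *SST* nor its reverse. TC1020 had the most *CALCA* and the least *SST*, and TC1601 had the least *CALCA* and an *SST* count between the others.

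In the branch of 25, *SST* was at 0 in 10 tumors, between 1 and 9 counts in 13, and higher in TC1593 and TC2011. TC1593 stood apart with a level of 9.93, and without it the highest level in that branch was 4.27. Of the other 24 tumors of that branch none had more than 21 counts. TC1593 had 15 counts of *CALCA*, 0 of *CALCB*, 38 of *RET*, 2 of *SCG2* and 13 of *CHGB*. Its summed C cell level was 8.71 on the log2 scale, rank 16 of the 25, in a branch that spanned 5.58 to 13.16 and below the 17.86 to 19.46 of the 5 tumors. *SYP*, the synaptic vesicle gene synaptophysin, was the exception with 428 counts and made up most of the C cell sum. *PCSK2* had 289 counts. Both were higher in other tumors of the branch: *SYP* had a level of 8.92 in TC1979 against 8.49, and *PCSK2* 10.74 in TC1088 against 7.93. Of the follicular genes, TC1593 had 412261 counts of *TG* and 14895 of *PAX8*, a transcription factor of the follicular cell, both just below the median level of the branch. Its summed follicular level was 18.61, also rank 16 of the 25 (median 19.35), and *TG* made up most of that sum. TC22 was the opposite, with 10889 counts of *CALCA* and 7 of *SST*.

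**Figure D1:**
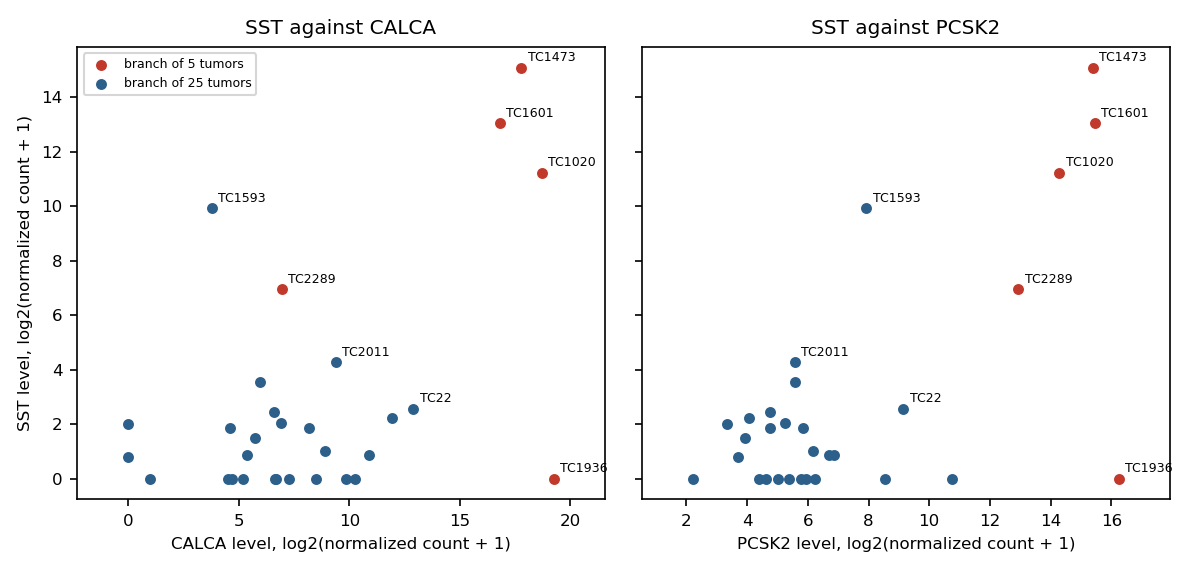
Level of *SST* on the vertical axis against the level of *CALCA* (left) and of *PCSK2* (right), both as log2 of the normalized count plus 1; each point is 1 tumor, red for the branch of 5 and blue for the branch of 25. TC1593 sits at an *SST* level of 9.93 with *CALCA* at 3.77, TC1936 lies at the right edge of both panels with *SST* at 0, and TC1473 is at the top.

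*SSTR2* was the receptor that was found in every tumor and the only one that separated the branches. It had 505 counts in TC1020, 363 in TC2289, 289 in TC1473, 130 in TC1936 and 79 in TC1601. The other 25 tumors had between 1 and 44 counts, and 28 of the 30 tumors had at least 10. Normalized counts were 67.8 to 488.5 in the branch of 5 and 3.59 to 46.55 in the branch of 25 (median 16.86), so the 5 tumors lay above all others. The lowest *SSTR2* level of the 5 (TC1601, 6.10) exceeded the highest of the 25 (TC2089, 5.57) by 0.53 on the log2 scale. For comparison, 337 (1.8%) of the 18711 genes that reached 10 counts in 5 or more tumors were higher in all 5 than in all 25, and 62 (0.331%) were lower. Of the members, 3 of 4 passed this filter, 1 was higher in all 5 and 0 were lower. TC1593, with its 1161 counts of *SST*, had 18 counts of *SSTR2*, near the median of its branch. TC1936, without *SST* reads, had an *SSTR2* level of 7.11, and TC1601, with much *SST*, had the lowest of the 5.

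*SSTR1* was highest in TC1213 and TC1593, *SSTR2* in TC1020, and TC1936 was high in both. *SSTR1* reached 164 counts in TC1213, 155 in TC1593, 91 in TC22, 68 in TC1936, 62 in TC1744, 46 in TC2011 and 42 in TC1218. Counts were between 1 and 9 in 12 tumors and 0 in TC1020, where up to 0.125 CPM remain possible. The median over the 30 tumors was 13 counts, or a level of 3.85. The branch of 5 covered almost the whole range, with 2 counts in TC1473, 3 in TC2289, 24 in TC1601 and 68 in TC1936 beside the 0 of TC1020. *SSTR1* overlapped between the branches: of the 5 tumors, TC1601 and TC1936 lay above the median of the 25 and the other 3 below it.

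*SSTR3* was close to absent outside a single tumor. TC1020 had 461 of the 486 *SSTR3* counts, TC1473 had 19, 6 tumors of the larger branch had 1 each and 22 tumors had 0. At a count of 0 the libraries allow between 0.0822 and 0.244 CPM. TC1601, TC1936 and TC2289 were at 0, so the gene did not follow the branch. With 10 counts or more in only 2 tumors, *SSTR3* did not pass the filter on low counts. TC1020 had both the most *SSTR2* and the most *SSTR3* and was the only tumor with no *SSTR1* read.

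**Figure D2:**
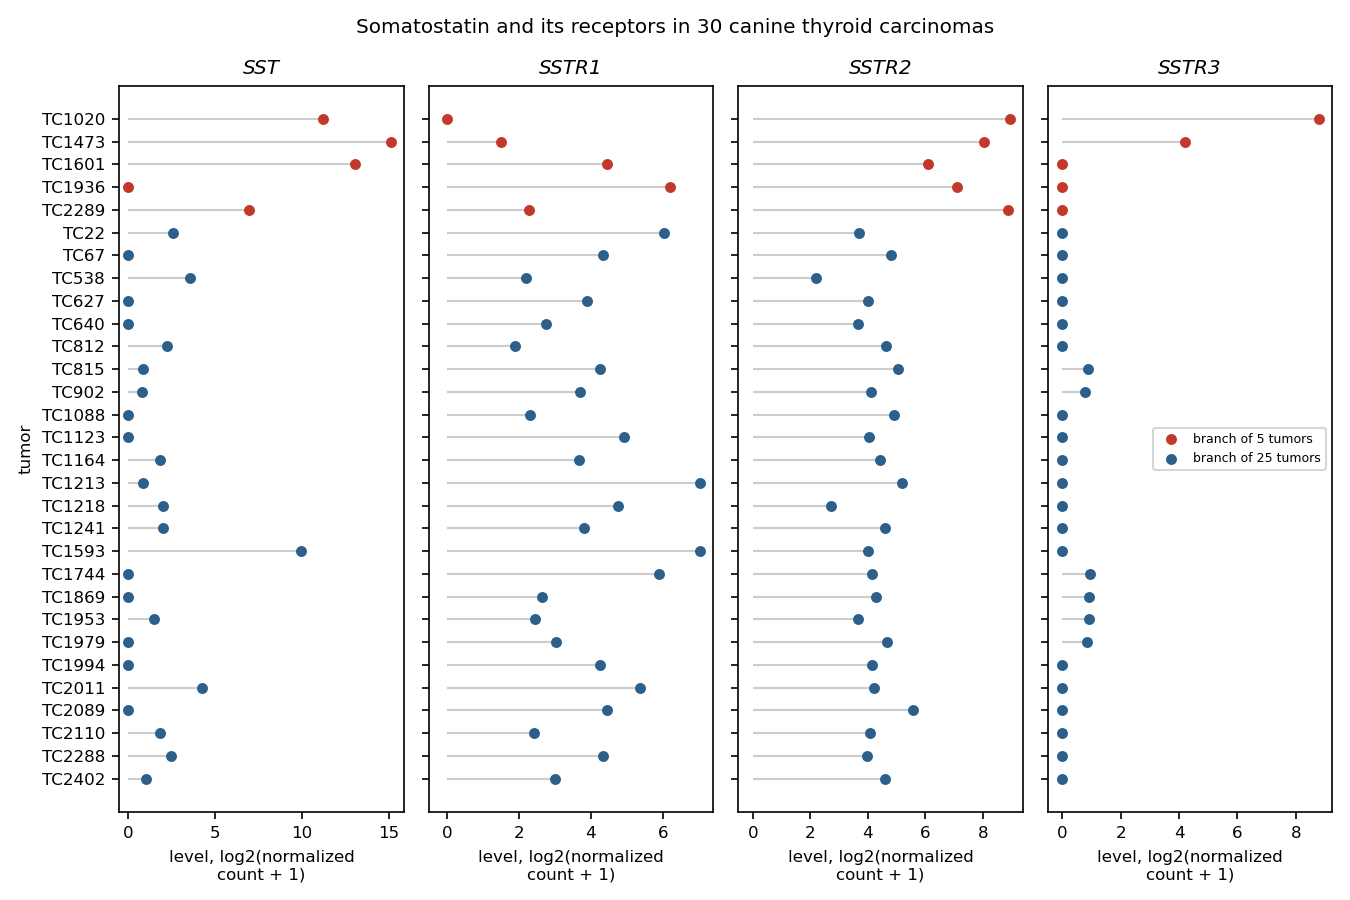
Level of *SST*, *SSTR1*, *SSTR2* and *SSTR3* (horizontal axes, log2 of the normalized count plus 1) in each of the 30 tumors (rows), red for the branch of 5 and blue for the branch of 25. The 5 red points of *SSTR2*, 6.10 to 8.94, lie to the right of all blue points, those of *SSTR1* overlap with the blue ones, *SSTR3* is high in TC1020 alone, and *SST* is above a level of 9 in TC1473, TC1601, TC1020 and TC1593.

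The receptors were set against each other within a tumor as normalized counts per kilobase of coding sequence, with coding lengths of 1176 bases for *SSTR1*, 1110 for *SSTR2* and 1278 for *SSTR3* from RefSeq models of the UU_Cfam_GSD_1.0 assembly. Reads in untranslated regions are counted but not part of these lengths. *SSTR2* had a median of 17.6 normalized counts per kilobase over the 30 tumors (range 3.23–440.0), *SSTR1* of 11.4 (0–111) and *SSTR3* of 0 (0–349). The medians of *SSTR2* and *SSTR1* lie well inside each other's spread. In 13 tumors *SSTR2* was higher than *SSTR1* beyond the exact 95% binomial interval of their counts, in 6 *SSTR1* was higher, and in 11 the order could not be told apart at this depth. The 13 included all 5 tumors of the small branch. *SSTR1* was the higher in TC22, TC1213, TC1218, TC1593, TC1744 and TC2011, which all belong to the larger branch. These intervals, like the limits for a count of 0, cover counting error only.

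As shares of the raw counts on the 3 receptors, TC2289 was almost purely *SSTR2* (99.2%, exact 95% interval 97.6–99.8, of 366 counts) and so was TC1473 (93.2%, 89.8–95.8, of 310 counts). TC1020 divided its 966 counts between *SSTR2* (52.3%, 49.1–55.5) and *SSTR3* (47.7%, 44.5–50.9). TC1936 joined *SSTR2* (65.7%, 58.6–72.2) with *SSTR1* (34.3%, 27.8–41.4). TC1601 lay between, with 76.7% *SSTR2* (67.3–84.5) of 103 counts. Of the 25 tumors, TC1593 was the most one-sided for *SSTR1*, with 89.6% (84.1–93.7) of 173 counts, followed by TC22 with 84.3% (76.0–90.6) of 108. The 5 tumors shared a high *SSTR2* but differed in the receptor beside it, which was *SSTR3* in TC1020 and, at 6.13%, in TC1473, and *SSTR1* in TC1936 and TC1601.

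**Figure D3:**
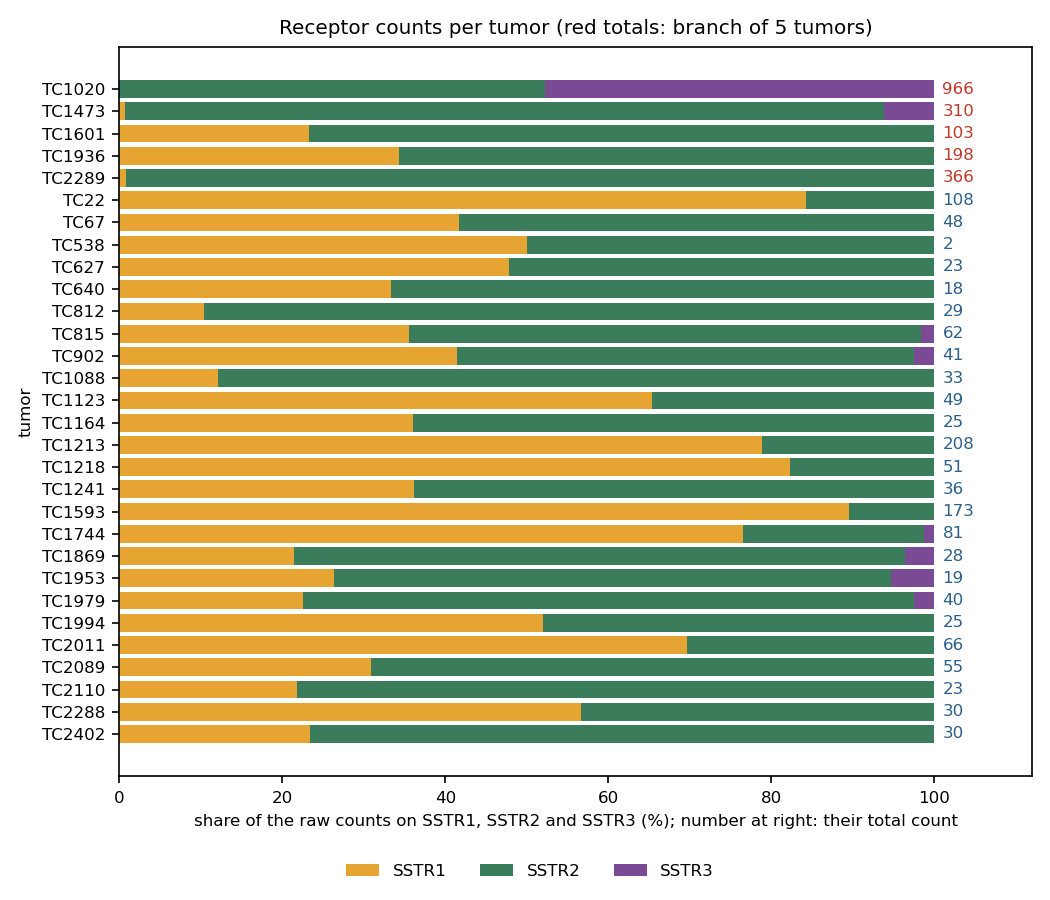
Share of the raw counts of *SSTR1* (orange), *SSTR2* (green) and *SSTR3* (purple) in each tumor, in percent of their sum, with the summed count at the right (red for the branch of 5 tumors, blue for the branch of 25). TC1020 alone has a large purple part (47.7%), TC2289 is 99.2% green, TC1593 is 89.6% orange, and TC538 rests on 2 counts.

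The genes that make the peptide and that carry the receptor signal were taken as 7 lists of 44 genes, of which 41 had an entry and 38 passed the filter. Of these 38, 7 were higher in all 5 tumors than in all 25 and 0 were lower, beside 1.8% and 0.331% of all genes that passed. These genes were not left out of the clustering, so their separation is not independent of how the branches were drawn. The prohormone processing list held 4 of the 7. *PCSK1* and *PCSK2*, the convertases that cut peptide precursors in secretory granules, had levels of 10.77 to 15.67 and 12.94 to 16.24 in the branch of 5, against at most 9.31 and 10.74 in the branch of 25. *CPE*, the carboxypeptidase that trims the cut ends, ranged from 12.48 to 15.02 against 6.82 to 9.16, and *SCG5*, a helper protein of *PCSK2*, from 12.41 to 14.43 against 1.94 to 10.41. *PCSK1N*, an inhibitor of *PCSK1*, overlapped, as did the general convertases *FURIN* and *PCSK5*. TC1936, without *SST*, had the highest level of both *PCSK1* and *PCSK2*. TC1593, with *SST*, had a summed processing level of 11.47, rank 24 of the 25, a sum in which *FURIN* (level 11.02) weighed most. Against the medians of the branch of 25, its *FURIN*, *PCSK5* and *SCG5* were lower (*SCG5* 2.95 against 5.83). Its *PCSK1*, *PCSK1N*, *CPE* and *PCSK2* were higher (*PCSK2* 7.93 against 5.57).

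Among the 5 genes for inhibitory G proteins, *GNAO1*, the form known from neurons and endocrine cells, separated the branches (10.98–11.49 against 3.70–10.69). *GNAI1* and *GNAZ* overlapped, with higher medians in the 5 (9.39 against 7.16 and 9.53 against 5.84). The widely expressed *GNAI2* and *GNAI3* had nearly equal medians in both, 11.84 and 11.90 for *GNAI2* and 11.20 and 11.10 for *GNAI3*. *PTPN6*, a tyrosine phosphatase that somatostatin receptors can engage and that blood cells also carry, was higher in the 5 (9.48–10.50 against 6.87–9.46), by a narrow margin, and *PTPN11* and *PTPRJ* overlapped. *ADCY1* was the only 1 of 8 adenylyl cyclase genes with enough counts to lie higher in all 5 (10.54–12.83 against 6.03–8.83). All 6 genes for arrestins and receptor kinases, which end receptor signalling, overlapped, as did the 3 potassium channel genes that passed the filter. Of the 6, *ARRB1* (11.9 against 8.71), *ARRB2* and *GRK2* had higher medians in the 5, and *GRK3*, *GRK5* and *GRK6* lower ones. *KCNJ3*, a channel subunit opened by inhibitory G proteins, was read in quantity in TC1473 (4414 counts) and TC2289 (544 counts) and had at most 6 counts elsewhere. Of the known regulators of the *SST* gene, the 6 tested overlapped, and *PDX1*, an islet factor that drives *SST* in the pancreas, had at most 6 counts in any tumor.

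Within the branch of 25, no relation between the levels of *SSTR1* and *SSTR2* was detected (*n* = 25, Pearson *r* = 0.13, permutation *p* = 0.548; Spearman rho = 0.033, permutation *p* = 0.876). Without TC1213 and TC1593, the tumors farthest from the median of *SSTR1*, *r* was 0.036 (permutation *p* = 0.873). *SST* and *SSTR3* had too few counts for a correlation, and the branch of 5 has too few tumors.

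*SSTR1* and *SSTR2* were then compared in these 25 tumors with 17 lists of cell type and pathway genes, 34 pairs in all. The endothelial list, 6 genes of the vessel lining, was the only 1 related to *SSTR1* after Benjamini-Hochberg adjustment over the 34 pairs (rho = 0.62, permutation *p* = 0.0011, adjusted *p* = 0.0374). Pearson's *r* was 0.60 (permutation *p* = 0.00173, adjusted *p* = 0.0588), and 0.74 without TC1213 and TC1593 (permutation *p* = 7e-05). The relation did not pass the threshold without TC1088 (rho = 0.58, adjusted permutation *p* = 0.126), without TC538 (rho = 0.57, adjusted permutation *p* = 0.0775) or with TMM scaling (rho = 0.61, adjusted permutation *p* = 0.0527). TC538 had the smallest size factor (0.279) and 1 count each of *SSTR1* and *SSTR2*. The rho of *SSTR1* was 0.34 with the size factor (permutation *p* = 0.0972) and 0.24 with the library total (permutation *p* = 0.25), neither past the threshold, and the part of depth in the relation was not tested. TC1593 did not follow it, with a high *SSTR1* and an endothelial level that ranked 20 of 25.

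By gene, *SSTR1* was related over the 25 tumors to *TEK* (rho = 0.73), *PECAM1* (0.69), *CDH5* (0.59), *KDR* (0.58) and *VWF* (0.57), all known from endothelium, and less to *CLDN5* (0.24), a tight junction gene that was at 0 in TC538. *CLEC14A*, another endothelial gene and the neighbour of *SSTR1* in the RefSeq gene order, had a rho of 0.66. Whether the strand was used in counting is not given in the sources used here, and reads of overlapping or antisense genes cannot be told apart from those of a member. The 5 genes whose levels ran most like *SSTR1* among 13308 genes were *NEURL1B* (rho = 0.82), *PODXL* (0.78), *PIEZO2* (0.74), *TEK* (0.73) and *MCF2L* (0.72). *PODXL* encodes podocalyxin, a surface protein of vessels and kidney podocytes, and *PIEZO2* a mechanically gated channel.

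No list passed the threshold with *SSTR2*. Its rho with the endothelial list was 0.052 (adjusted permutation *p* = 0.890), and the largest in size was a negative one with the follicular list (rho = -0.47, adjusted permutation *p* = 0.172). The lists for T cells and macrophages, cells that can carry *SSTR2*, gave a rho of 0.17 and -0.084. The genes most like *SSTR2* in the 25 tumors were *DHX8* (rho = 0.77), *DUSP2* (0.72), *SLC9A3R1* (0.71), *PSMB7* (0.71) and *NAB2* (0.70). Of these 5, only 1 was again among the 5 most alike when TC1088 was left out, and *SSTR2* rested on 1 to 44 counts in these tumors.

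**Figure D4:**
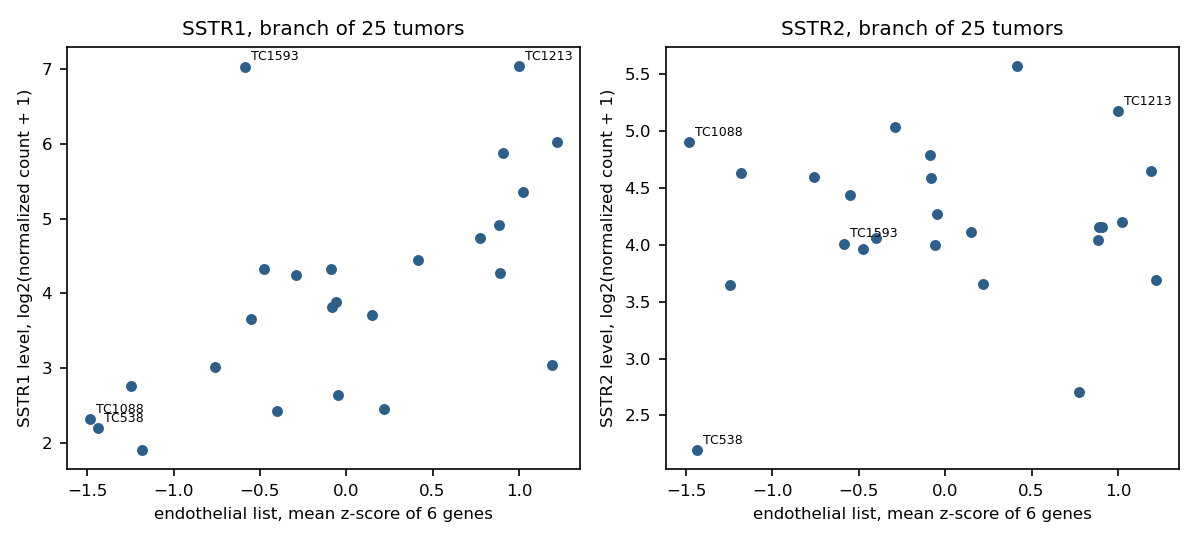
Level of *SSTR1* (left) and *SSTR2* (right), log2 of the normalized count plus 1, against the mean z-score of the 6 endothelial genes in the 25 tumors of the larger branch (1 point per tumor). *SSTR1* runs from the lower left, with TC1088 and TC538, to the upper right (rho = 0.62), TC1593 lies above the others at the left, and *SSTR2* shows no such course (rho = 0.052).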

How the data were processed

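RNA of 30 tumors was extracted with TRIzol and made into libraries with the Zymo-Seq RiboFree total RNA kit. Per the study's methods, STAR aligned them to CanFam3.1 and counted them by Ensembl gene. The authors deposited these raw counts as 1 table, which held 0 columns of no tumor. Of its 30424 genes, 15780 carried a symbol. No molecular identifiers were counted, the strand setting is not given in the sources used here, and 0 pairs of tumors had identical counts. The labels put no tumor in a group and name no batch.

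Median-of-ratios size factors were taken from the 15611 genes read in all tumors, counts were divided by them, and levels are log2 of the normalized count plus 1. A count of 0 was given an upper limit of 3 counts. Tumors were clustered (Ward linkage, Euclidean distance) on 763 genes (mean level over 2, variance over 6), without the members, and the tree was cut into 2 branches. Correlations within the branch of 25 were tested with 100000 two-sided permutations and Benjamini-Hochberg adjustment, for members with 10 or more counts in at least 10 tumors. They measure the spread between tumors, each a single library. A list was scored by the mean of its z-scored levels, and its summed level is the log2 of its summed normalized counts plus 1. The genes most like a member are the 5 with a symbol and the highest rho among genes with 10 or more counts in at least 5 of the 25 tumors. Binomial intervals are exact (Clopper-Pearson, 95%).

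The members, the lists and the tests were chosen with earlier results of these data known. Named genes are the members, *CORT*, the genes of the lists and the 5 genes most like a member, and others were chosen after their values were seen. Results of some genes of the lists are not reported here. Python 3.11.15 (numpy 2.4.6, scipy 1.17.1, pandas 2.3.3, matplotlib 3.10.9) and, for TMM factors, edgeR 4.0.16 in R 4.3.3 were used, and the correlation steps were tested on simulated data. Gene order and coding lengths came from RefSeq for UU_Cfam_GSD_1.0, whose start positions were used only to order the genes. Alternatives were TMM factors, CPM, stricter size factors, a pseudocount of 8, raw counts without length, average linkage, the 1000 genes of highest variance, no count filter, and leaving out TC1088 or TC538. Leaving out TC1593 was added after seeing the data.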

Additional observations from a re-analysis of the deposited data

How the results depend on the processing

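Of 72 values recomputed for 21 results, 61 were counted as unchanged. Many of them were levels or counts, which have no direction or threshold to lose. The median *SST* level was counted so at 1.24 in the main setting and 3.23 with a pseudocount of 8. The branch of 5 held the same 5 tumors with average linkage and with the 1000 genes of highest variance. Without TC538, the rho of *SSTR1* with *SSTR2* turned from 0.033 to -0.077 and that of *SSTR2* with the endothelial list from 0.052 to -0.045. The number of lists related to *SSTR1* at an adjusted *p* below 0.05 was 1, and 0 without TC1088, without TC538 and with TMM factors. Of the 5 genes most like *SSTR2*, 1 remained among the 5 without TC1088. The highest *SST* level of the larger branch was 4.27 without TC1593, and the median *SSTR3* level was 3.0 with a pseudocount of 8, the value the pseudocount gives to a count of 0. The causes of the other changes were not tested. Depth limits the low values: fewer than 10 counts were read in 24 tumors for *SST*, 13 for *SSTR1*, 2 for *SSTR2* and 28 for *SSTR3*. No paired analysis was possible because the labels give no groups.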

Other observations

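The *SST* counts spread over more than 4 orders of magnitude without a clear gap between 2 sets of tumors. From the top they were 38249 (TC1473), 9919 (TC1601), 2489 (TC1020), 1161 (TC1593), 96 (TC2289), 21 (TC2011), 7 (TC22), 5 (TC1218) and at most 4 in the remaining tumors.

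TC1593 was compared gene by gene with the other 24 tumors of its branch, by how far its level lay above the highest of them, after its *SST* value had been seen. *SST* ranked second of 15780 genes with a symbol, at 5.67 above the next tumor on the log2 scale. *HOXC12* ranked first (6.11 above, 376 counts against at most 1), and *HOXC11* (4.28 above, 105 counts against at most 4) and *HOXC13* (3.92 above, 222 counts against at most 13) were also among the first 5. These 3 are neighbouring homeobox genes at an end of the HOXC cluster, which is used in the rear part of the embryo and in hair follicles. *SLC17A7*, a glutamate transporter of synaptic vesicles, was the other of the 5 (4.27 above, 162 counts against at most 5). Of the *SST* neighbours in the RefSeq gene order, *RTP4* had a level of 7.12 in TC1593, inside the range of the other tumors (5.33–9.54), and *RTP2* had 19 counts and a level of 4.08, above their highest of 3.03.

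In TC1020, compared in the same way with the other 29 tumors, *SSTR3* ranked second (4.61 above, 461 counts against at most 19). *ALDH1A2*, an enzyme that makes retinoic acid, ranked first (5.13 above, 24849 counts against at most 753), followed after *SSTR3* by *TNR* (4.38 above), *ARPP21* (4.32 above) and *SERPINF2* (4.16 above). *TNR* and *ARPP21* are known from the nervous system, and *SERPINF2* encodes the plasmin inhibitor of the liver. The neighbours of *SSTR3*, *RAC2* (level 5.95) and *C1QTNF6* (level 7.84), lay inside the range of the other tumors (1.81–6.91 and 4.45–9.59).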
